A study of Rattus norvegicus with 9 samples.

Results

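Resting small pre-B cells of the rat tibia were described in 8 single-cell RNA libraries of tissue taken from a proximal tibial osteotomy. The cells were selected on measured values. Barcodes needed 200 or more genes, and no more than 20% of their UMIs (unique molecular identifiers, 1 per captured RNA molecule) could be mitochondrial. A cell was a member when it held at least 2 UMIs of Ebf1, at least 1 of Rag1 and 0 of Mki67, Top2a, Dntt and Ms4a1. This rule found 17098 members among 114232 cells, and each library gave 1773 to 2658 of them.

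B cells are made in the marrow in ordered stages. Pro-B cells join the gene segments of the immunoglobulin heavy chain with the Rag1 and Rag2 recombinase and add bases at the joins with Dntt, a terminal transferase. A successful heavy chain pairs with the surrogate light chain (Igll1 with a VpreB protein) as the pre-B cell receptor, which drives a burst of division. Small pre-B cells have left that burst, switch off the surrogate light chain and use Rag1 and Rag2 again, now on the kappa and lambda light-chain loci. Once a light chain is made, B cells gain surface immunoglobulin, Ms4a1 (CD20) and the machinery for presenting antigen on MHC class II.

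The study asked whether radial extracorporeal shock waves at a tibial osteotomy help a distant skin wound on the foot to heal, and sequenced the osteotomy tissue to look for the cells behind such an effect. All animals were male Sprague-Dawley rats, 6 to 8 weeks old, with a 3 mm circular tibial osteotomy and a 4 mm skin wound on the foot. TO rats had no shock waves, and their 4 libraries were labelled day 2 at 0 h and 4 h and day 4 at 4 h and 24 h. TOE rats received them, and their 4 libraries were labelled day 2 and day 4, each at 4 h and 24 h after the session. Each condition was 1 library, and the labels do not say which rats went into which, so TOE was not tested against TO within a pair and the intervals given there cover counting error only. A single test was made over the 3 matched pairs. Any 2 libraries had between 38 and 108 cell barcodes in common, of which at most 5 were small pre-B cells in both.

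Members held a median of 3602 to 4340 UMIs and 1793 to 2012 genes per cell. The median mitochondrial share ran from 1.98% to 4.88%, and 1.48% to 3.71% of members scored as likely doublets. Levels are given in CPM, the UMIs of a gene per 1000000 UMIs of the population in a library. The library TOE_4d_24h stood apart from the other 7. Its members held 5.73 CPM of the haemoglobin gene Hba-a1 against 564 to 1875 elsewhere, and 7840 CPM of the neutrophil gene S100a8 against 1932 to 3100. Values that rest on it are therefore given with those of the other libraries.

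The rule fixed the levels of its 6 genes, which are no result. Members had a median of 30 to 57 UMIs of Ebf1, and at least 98.1% of them held 4 or more. The Rag1 cut was the sharp edge. Of otherwise qualifying cells with 4 or more Ebf1 UMIs, 16235 had no Rag1 UMI and lay just outside, 6040 had exactly 1 and lay just inside, and 3606 had 2. At the Ebf1 edge, 113 members held 2 Ebf1 UMIs with 1 of Rag1, and 142 cells with 1 Ebf1 and 1 Rag1 UMI lay outside.

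Members were compared with 3 other populations of the same libraries, all with at least 2 Ebf1 UMIs. Pro-B cells held Dntt and none of Mki67, Top2a or Ms4a1 (1761 cells). Cycling pre-B cells held Mki67 and Top2a and neither Dntt nor Ms4a1 (20207 cells). Ms4a1-positive B cells held Ms4a1 and none of Rag1, Mki67, Top2a or Dntt (7907 cells). Members lacked Dntt, Mki67, Top2a and Ms4a1 by the rule. Genes expressed with these were thus partly set to differ, and their differences describe the populations. UMIs were summed per library and population and tested with edgeR across the 8 libraries, with the library as a block. A gene was called at an adjusted p under 0.05 and a difference of at least 2-fold. Log2 values are given as small pre-B minus the other population, with the standard error, and all adjusted p are Benjamini-Hochberg values over 14480 genes. Cells with at least 10 S100a8 UMIs and no Ebf1 or Cd79a, called S100a8-high cells here, served as a measure of free RNA.

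Markers that the rule did not use are given next. They were chosen with earlier results of these data known, so their levels describe the members and do not test the label. Bach2, a transcriptional repressor expressed in B cells, had a median of 5800 CPM in members (range over libraries 2911 to 9226). The median was 1202 CPM in pro-B cells, and S100a8-high cells held 80.6 on average. Cecr2, a bromodomain protein of chromatin remodelling, stood at 2479 CPM (1729 to 3478) against 722 in pro-B, 552 in cycling and 987 in Ms4a1-positive cells. The scaffold protein Akap12 stood at 1216 CPM (642 to 1557) against 507, 276 and 311. Akap12 and Cecr2 were called higher in members in all 3 comparisons, with log2 differences between 1.13 ± 0.07 and 2.02 ± 0.11, and each was higher in 8 of 8 libraries. Bach2 was called against pro-B (2.13 ± 0.14) and cycling cells (2.42 ± 0.14) and lay at the 2-fold edge against Ms4a1-positive cells (0.99 ± 0.13). Pax5, the factor that commits cells to the B lineage, was higher than in cycling cells (1.23 ± 0.09) and lower, within 2-fold, than in Ms4a1-positive cells (-0.68 ± 0.09). After every cell was thinned to 2000 UMIs, which left 15824 members and set aside 1274 shallower ones, 94.8% ± 2.61 of members (SD, n = 8 libraries) held a Cecr2 UMI against 7.31% of S100a8-high cells, and 75.9% ± 9.27 held an Akap12 UMI against 2.82%. S100a8-high cells had median depths of 3102 to 6981 UMIs before thinning. Cecr2 and Akap12 UMIs were thus rarer in S100a8-high cells at equal depth. Those cells were chosen to lack Ebf1 and Cd79a, so their low levels of B-lineage genes were partly set by that choice.

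**Figure D1:**
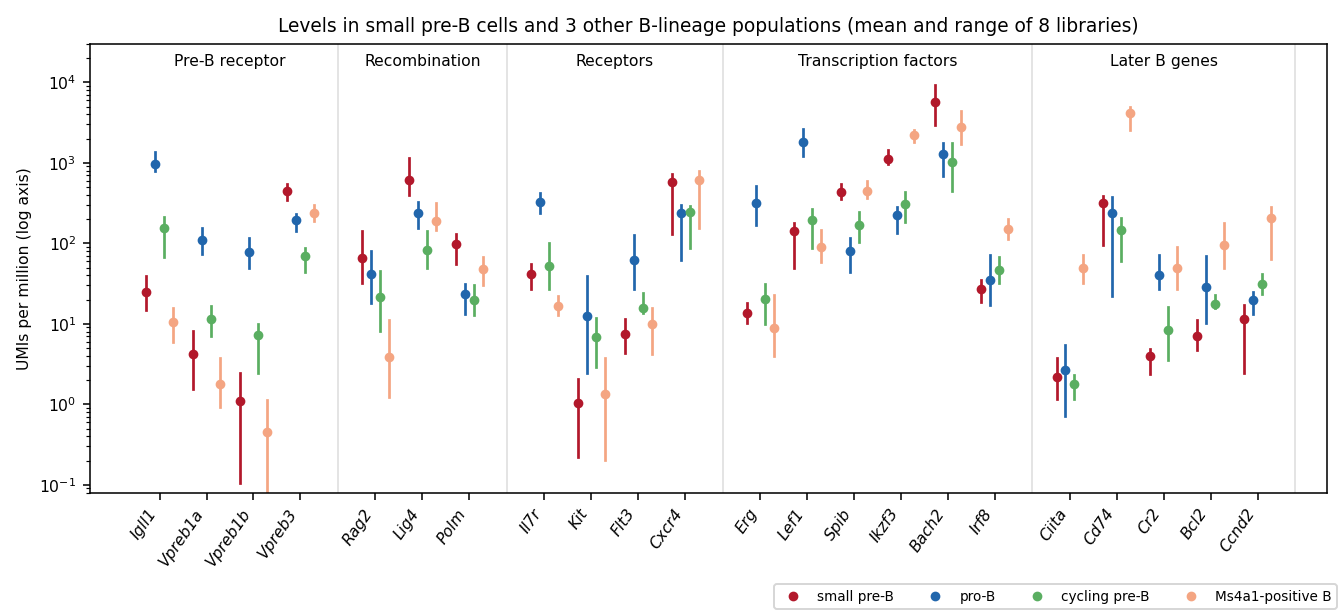
Level of named genes in small pre-B, pro-B, cycling pre-B and Ms4a1-positive B cells, in CPM on a log axis; points are means over the 8 libraries and bars run from the lowest to the highest library, and a lowest value of 0 runs off the axis. The mean levels of Igll1, Vpreb1a and Vpreb1b were highest in pro-B cells, those of Vpreb3, Lig4, Polm and Bach2 in small pre-B cells, and that of Cd74 in Ms4a1-positive cells.

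The surrogate light chain was near background in members. Igll1, its lambda5 component, had a median of 24.3 CPM in members (14.9 to 39.5) against 920 in pro-B (795 to 1378) and 148 in cycling cells (67.1 to 212), with no overlap. Igll1 fell by 5.27 ± 0.15 on the log2 scale from pro-B cells (edgeR adjusted p = 5.21e-19) and by 2.69 ± 0.14 from cycling cells (edgeR adjusted p = 1.82e-15), in 8 of 8 libraries each. Pro-B cells were chosen for Dntt, so the direction against them was partly set for genes expressed with it. Vpreb1a stood at 3.80 CPM (1.57 to 8.25) against 109 in pro-B cells, and Vpreb1b at 0.907 CPM (0.104 to 2.43) against 70.02, log2 differences of -4.72 ± 0.14 and -6.12 ± 0.26. At 2000 UMIs per cell, 3.84% ± 1.08 of members held an Igll1 UMI, against 62.2% of pro-B cells and 1.84% of S100a8-high cells. The share in members thus lay nearer to that of cells which should lack the gene than to that of pro-B cells. Igll1, Vpreb1a and Vpreb1b were still called higher than in Ms4a1-positive cells, by log2 1.20 to 1.30, from levels of 0.366 to 10.2 CPM there.

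Ebf1 is a known activator of Igll1, so the promoter of Igll1 is shown beside that of Akap12, a marker that moved the other way from pro-B to small pre-B cells. Each window holds 250 bases before and 50 after the annotated start (RefSeq, build GRCr8, not the build of the counts). The core of the Ebf1 motif, CCCNNGGG, which reads the same on both strands, is in capitals.
Igll1, chr11:97642937-97643236, plus strand: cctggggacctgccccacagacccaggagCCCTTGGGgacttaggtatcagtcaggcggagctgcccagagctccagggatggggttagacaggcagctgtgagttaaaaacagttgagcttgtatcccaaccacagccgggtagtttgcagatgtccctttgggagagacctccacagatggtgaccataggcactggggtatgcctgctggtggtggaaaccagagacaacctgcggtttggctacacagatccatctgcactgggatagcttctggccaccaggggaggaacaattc
Akap12, chr1:43135265-43135564, plus strand: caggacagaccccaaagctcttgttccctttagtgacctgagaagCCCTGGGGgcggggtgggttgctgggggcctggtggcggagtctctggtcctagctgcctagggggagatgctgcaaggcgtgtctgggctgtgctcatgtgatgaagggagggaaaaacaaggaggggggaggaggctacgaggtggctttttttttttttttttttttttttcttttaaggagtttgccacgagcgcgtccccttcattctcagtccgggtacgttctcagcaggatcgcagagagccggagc
Both windows hold 1 match, at positions 30 to 37 for Igll1 and 46 to 53 for Akap12, counted from the first base shown. The same letters occur in 12.4% of 33469 rat promoter windows of this length, so their presence sets neither gene apart. Both genes are read in cells chosen for Ebf1, and their levels went in opposite directions.

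Other parts of the receptor complex were higher in members than in pro-B cells. Across the genome 6.15% of tested genes were called higher and 9.28% lower than in pro-B cells. Of 24 listed genes of the pre-B and B cell receptor, 8 were called higher and 5 lower, with a median log2 difference of 0.41 against 0.02 over all genes. The 8 were Vpreb3, the signalling chain Cd79b, the kinases Syk, Blk and Lyn, the inhibitory co-receptor Cd72, the Fc receptor-like Fcrla and the lambda constant gene Iglc1. Fcrla had a median of 613 CPM in members (401 to 936) against 106 in pro-B cells, a log2 difference of 2.65 ± 0.11. Vpreb3 stood at 454 CPM (341 to 545) against 194, a difference of 1.26 ± 0.07. The libraries of the 2 populations did not overlap for either gene. The 5 lower genes were the 3 surrogate light-chain genes, Spn (CD43) and Cd22. Cd22, an inhibitory co-receptor, stood at 8.58 CPM in members (7.96 to 9.58) against 69.9 in pro-B (log2 -2.94 ± 0.12) and 80.7 in Ms4a1-positive cells (-3.24 ± 0.11). Cycling cells held 10.6 CPM, within 2-fold of the members (-0.36 ± 0.11).

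Against cycling pre-B cells the same list was called higher for 15 genes and lower for 4, with a median of 1.37. The background there was wide: 12.3% of genes were called higher and 19.8% lower, with a median of -0.08. Cd79a and Cd79b, the signalling pair of the receptor, were higher by log2 1.42 ± 0.08 and 1.72 ± 0.07, and the adaptor Blnk by 1.65 ± 0.08. In cells thinned to equal depth, 60.5% of cycling cells and 93.9% of members held a Cd79a UMI (means over libraries). Without thinning, cycling cells had median depths of 10713.5 to 19329 UMIs. Of these, 1727 of 2770 in TO_2d_4h and 1811 of 2211 in TO_4d_24h held at least 2 Cd79a UMIs. For members these were 1922 of 2213 and 1730 of 1773. The part of cycling cells without Cd79a in the receptor differences was not tested. The cycling population held more RNA of other cell types. All 10 erythroid markers were called lower in members (median log2 -2.59). Their summed level ran from 30.8 to 3518 CPM over the member libraries and from 452 to 14099 CPM in cycling cells, with no marker at 0 over all libraries of either, though Slc4a1 had 0 UMIs in the members of TOE_4d_24h. Of the other marker lists, monocyte and macrophage genes were 0 higher and 4 lower of 10, mesenchymal genes 0 and 4 of 10, T and NK genes 0 and 2 of 6 and neutrophil genes 2 and 3 of 10. The part of these cells in the comparison was not tested gene by gene. When at least 2 Cd79a UMIs were required of every population, a setting added once the data were known, 4175 genes were called against cycling cells in place of 4647. Against Ms4a1-positive cells 4.56% of genes were called higher and 4.12% lower. Of the receptor list, 5 were higher (Igll1, Vpreb1a, Vpreb1b, Blnk and the ectoenzyme Cd38) and 4 lower (Cd22, the phospholipase Plcg2, the phosphatase Ptprc and the adaptor Bank1, by 4.07 ± 0.13).

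Light-chain gene segments were looked for after the leading genes had been seen. The deposited gene list holds 104 kappa variable (V) segments, located by their RefSeq names and neighbours, and 101 of them had a UMI in some member. Summed over all 104, they stood at 900 ± 203 CPM in members (SD, n = 8 libraries, range 667 to 1241). The sum was 119 ± 32.7 CPM in pro-B (77.9 to 170), 81.1 ± 25.02 in cycling (37.7 to 121) and 412 ± 161 in Ms4a1-positive cells (278 to 780), and 7.70 in S100a8-high cells. Members exceeded all pro-B and cycling libraries without overlap, and exceeded Ms4a1-positive cells in every library but TOE_4d_24h, where the members' sum was 723 CPM and that of Ms4a1-positive cells 780 CPM. At 2000 UMIs per cell, 73.4% ± 6.67 of members held a kappa segment UMI, against 15.5% of pro-B, 17.8% of cycling, 47.2% of Ms4a1-positive and 1.5% of S100a8-high cells. Members were thus highest at equal depth too, followed by Ms4a1-positive cells, while pro-B and cycling cells changed places.

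Single members carried many segments. Between 78.5% and 91.3% of members per library held at least 1 kappa segment UMI. Of those with at least 2, between 54.3% and 76.6% held 3 or more different segments and only 2.96% to 10.7% held a single one, and the highest number in a cell was 10 to 15. A rearranged B cell expresses 1 kappa chain as a rule. Whether these counts came from 1 joined gene per cell was not tested, and the kappa constant gene Igkc was not in the deposited gene list. Segments resemble each other in sequence, and the part that reads shared between them took in these counts was not tested. The segments named by the size of their change were LOC103691145, LOC102551193 and LOC102551399 against pro-B cells and LOC108350592 and again LOC102551399 against cycling cells. LOC108350592 stood at 179 CPM in members (104 to 259), 21.7 in pro-B, 6.89 in cycling and 104 in Ms4a1-positive cells, and was 3.05 ± 0.12 above pro-B on the log2 scale (edgeR adjusted p = 3.13e-18).

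The heavy-chain segments differed in pattern. Their 79 listed genes summed to 1879 ± 288 CPM in members (1422 to 2204), 842 ± 171 in pro-B (568 to 1038), 591 ± 150 in cycling (402 to 774) and 2085 ± 366 in Ms4a1-positive cells (1389 to 2533). The sum in members lay above those of pro-B and cycling cells in every library, and its range overlapped that of Ms4a1-positive cells. Single segments were mixed against pro-B cells. Of 7 tested, 4 were called higher and 3 lower, beside 6.15% and 9.28% of all genes. Against cycling cells 6 were higher and 0 lower, beside 12.3% and 19.8%. The entry Ighv alone was seen in 93.4% of members and 71.6% of pro-B cells at 2000 UMIs. The lambda constant region LOC120093161 had a median of 1742 CPM in members (1031 to 2410), 199 in pro-B and 136 in cycling cells. Its log2 differences were 3.16 ± 0.17 and 3.52 ± 0.16, while that from Ms4a1-positive cells was 0.25 ± 0.15 and was not called (edgeR adjusted p = 0.191, higher in 7 of 8 libraries). Between 71.0% and 86.9% of members held a UMI of it. At 2000 UMIs per cell LOC120093161 was seen in 69.8% ± 7.35 of members and in 6.48% ± 4.18 of S100a8-high cells (2.78% to 15.2%).

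**Figure D2:**
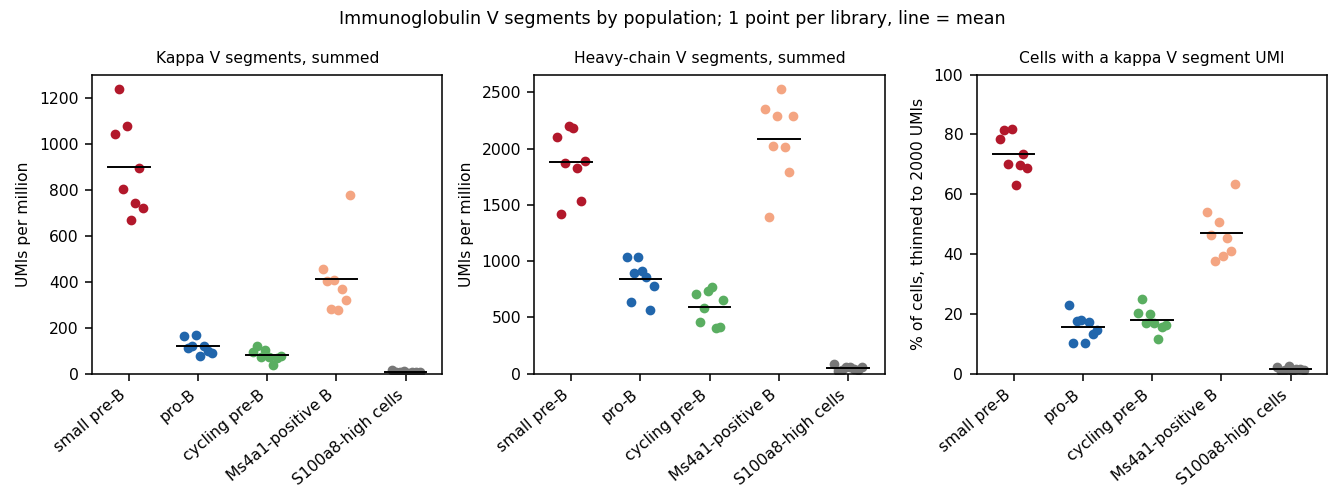
Summed level of kappa and of heavy V segments, in CPM, and percent of cells with a kappa segment UMI after thinning to 2000 UMIs, in small pre-B, pro-B, cycling pre-B, Ms4a1-positive and S100a8-high cells; each point is 1 library and black lines are means. Small pre-B cells sat between 667 and 1241 CPM for kappa segments, above every pro-B and cycling library.

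Of the recombination machinery, the end-joining genes Lig4 and Polm were higher in members. Lig4, the ligase that seals the joins, had a median of 541 CPM (397 to 1133) against 250 in pro-B (155 to 325), 74.7 in cycling (48.9 to 142) and 160 in Ms4a1-positive cells (147 to 313), and no member library overlapped another population. Its differences were 1.35 ± 0.09, 2.85 ± 0.09 and 1.68 ± 0.09 on the log2 scale, all called. Polm, a gap-filling polymerase, stood at 93.1 CPM (55.4 to 132), which was 2.08 ± 0.12 above pro-B and 2.19 ± 0.10 above cycling cells. The related polymerase Poll went the other way, at 2.34 CPM (1.61 to 3.97) in members against 9.29, 7.48 and 5.89, and was called lower in all 3 comparisons. Rag2, the partner of Rag1, stood at 48.7 CPM (32.2 to 143), 4.08 ± 0.13 above Ms4a1-positive cells. Cells chosen for Rag1 against cells without it were bound to differ in a gene expressed with it, so Rag2 is given as a description. Of the 20 tested genes of the list, 2 were higher and 2 lower than in pro-B cells (6.15% and 9.28% over all genes), 3 higher and 8 lower than in cycling cells (12.3% and 19.8%), and 2 higher and 1 lower than in Ms4a1-positive cells (4.56% and 4.12%). The first and last of these counts were near the shares over all genes. The list medians were 0.05, -0.34 and -0.02, close to those of all genes in the first and last comparison (0.02 in both).

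Among 38 tested transcription factors of the B lineage, 8 were called higher and 5 lower than in pro-B cells, beside 6.15% and 9.28% of all genes, so the lower count was close to the background. The largest differences were in factors of the early stages. Lef1, which acts in Wnt signalling, fell by 3.59 ± 0.23 from a median of 1844 CPM (1204 to 2653) in pro-B cells to 166 (48.7 to 181). Erg, an ETS factor of stem cells and early B cells, fell by 4.42 ± 0.17, from 301 to 13.0 CPM. Myc, which drives growth, was called lower than in all 3 populations, at 4.52 CPM in members (0.9749 to 8.87) against 18.0, 20.9 and 17.2. In the other direction Spib, an ETS factor of B cells, rose by 2.49 ± 0.13 from 77.4 to 425 CPM (354 to 541) and Ikzf3 (Aiolos) by 2.35 ± 0.15 from 238 to 1057 CPM (959 to 1445). Spib had reached the level of Ms4a1-positive cells (453 CPM, difference -0.07 ± 0.11), whereas Ikzf3 was another 1.02 ± 0.14 lower than there. Irf4, which acts on the light-chain loci, rose by 1.46 ± 0.09 to 180 CPM.

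Against cycling cells 12 factors were higher and only Myc was lower, with a median of 0.67 (all genes 12.3% and 19.8%). Foxo1, a known activator of the Rag genes, was higher by 1.85 ± 0.07 (712 against 195 CPM) and Sox4 by 1.99 ± 0.09 (897 against 210). Against Ms4a1-positive cells 6 were higher and 7 lower (all genes 4.56% and 4.12%). Sox4 (2.03 ± 0.10) and Myb (1.78 ± 0.12), both factors of progenitors, were higher in members, and Irf8 (-2.47 ± 0.13) and Mef2c (-2.03 ± 0.09) were lower. Mef2c had a median of 194 CPM in members (170 to 214) and 746 (645 to 1115) in Ms4a1-positive cells.

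Il7r, the receptor chain for the growth factor IL-7, had a median of 331 CPM in pro-B cells (237 to 422), 41.4 in members (27.1 to 55.9) and 16.8 in Ms4a1-positive cells (12.8 to 22.0), with no overlap. It was 2.93 ± 0.14 below pro-B (edgeR adjusted p = 4.64e-15) and 1.30 ± 0.16 above Ms4a1-positive cells (edgeR adjusted p = 1.62e-07), while the difference from cycling cells (-0.34 ± 0.13) was within 2-fold. Kit and Flt3, growth factor receptors of progenitors, were lower than in pro-B by 3.37 ± 0.48 and 2.96 ± 0.25. Cish, a feedback inhibitor of cytokine signalling, was lower by 2.99 ± 0.26, and Socs1, another inhibitor of that pathway, was higher by 1.64 ± 0.14 (39.3 against 13.9 CPM). Cxcr4, which holds B cell precursors near stromal cells, stood at 637 CPM in members against 251 in pro-B cells, a difference of 1.31 ± 0.09 in 8 of 8 libraries. Its lowest library was TOE_4d_24h at 131 CPM, and the other 7 lay between 543 and 729. In all, 6 of 31 tested genes of this list were higher and 8 lower than in pro-B cells (median -0.47), 8 and 8 against cycling cells (0.32), and 1 and 7 against Ms4a1-positive cells (-0.32). Over all genes these shares were 6.15% and 9.28%, 12.3% and 19.8%, and 4.56% and 4.12%, so the lower count against cycling cells was near the background. The 7 held the follicular chemokine receptor Cxcr5, Fcer2 (CD23), Cr2 (CD21) and the BAFF receptor Tnfrsf13c, and the 1 was Il7r. Fcer2 and Cr2 were also called lower than in pro-B cells (-1.40 ± 0.36 and -3.29 ± 0.18), and Cr2 lower than in cycling cells (-1.09 ± 0.17).

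Of 20 survival genes, 2 were higher and 3 lower than in pro-B cells (6.15% and 9.28% over all genes), 3 and 2 against cycling cells (12.3% and 19.8%), and 1 and 1 against Ms4a1-positive cells (4.56% and 4.12%), counts close to those shares. Bmf, which promotes death by binding survival proteins, had a median of 124 CPM in members (68.4 to 135), against 34.5 in pro-B (25.7 to 57.9) and 14.4 in cycling cells (3.88 to 19.6). It was higher by 1.70 ± 0.17 and 3.06 ± 0.15. The survival gene Bcl2l1 (Bcl-xL) stood at 297 CPM (244 to 354) and was called higher against all 3 populations, by 1.11 ± 0.10 to 1.52 ± 0.10. Bcl2, its relative, was called lower in all 3, and most so against Ms4a1-positive cells, at 6.71 CPM (4.75 to 11.1) against 88.1 (48.6 to 179), a log2 difference of -3.72 ± 0.28. The Bcl2 level in members was near that of S100a8-high cells (7.51 CPM on average).

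All 49 tested genes of S phase and G2/M were lower than in cycling cells (median -3.56), which the choice of both populations on Mki67 and Top2a had fixed. Of the listed genes of cell-cycle exit, Ccng2 (201 against 64.3 CPM, 1.53 ± 0.06) and the antiproliferative genes Btg1 (1.51 ± 0.08) and Btg2 (1.19 ± 0.06) were higher than in cycling cells. The 5 lower ones were the cyclins Ccnd1, Ccnd2 and Ccnd3 and the cell-cycle inhibitors Cdkn1a (-1.90 ± 0.15) and Cdkn2c (-3.14 ± 0.13). That made 3 higher and 5 lower of 18, against 12.3% and 19.8% over all genes, with a median of -0.19. Ccnd2 was also 4.19 ± 0.20 below Ms4a1-positive cells, at 11.1 CPM (2.44 to 16.9) against 211 (64.6 to 285). Glycolysis and hypoxia genes were lower than in cycling cells for 12 of 24 and higher for 0, by edgeR at adjusted p under 0.05 and 2-fold, with a median of -1.01. Gapdh stood at 319 CPM (250 to 567) against 1196 (1101 to 1816), and Ldha at 136 (87.1 to 227) against 560 (387 to 768). Markers of other cell types moved with this comparison, as given above.

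Of the lists, MHC class II had the median furthest from 0 against Ms4a1-positive cells. All 13 listed genes were called lower in members (median -2.67). Those cells were chosen for Ms4a1, which members lack by the rule, so the direction was partly set for genes gained with it. Ciita, the master activator of class II genes, had a median of 1.76 CPM in members (1.17 to 3.78) against 47.3 (32.1 to 70.8), a difference of -4.51 ± 0.19 (edgeR adjusted p = 8.41e-18). Cd74, the invariant chain, stood at 359 CPM (94.8 to 387) against 4353 (2541 to 4977), and the class II chain RT1-Da at 50.9 (15.2 to 145) against 737 (560 to 1851). No library of one population reached the other for these 3 genes. Against pro-B cells 1 of the 13 was higher and 0 lower (6.15% and 9.28% over all genes). Against cycling cells these were 2 and 2 (12.3% and 19.8%), with Cd74 among the higher. Both sets of counts were near the shares over all genes. At 2000 UMIs per cell 31.3% of members held a Cd74 UMI, against 93.3% of Ms4a1-positive, 15.9% of pro-B, 13.8% of cycling and 9.75% of S100a8-high cells. Immediate early genes of receptor signalling were lower than in Ms4a1-positive cells for 6 of 30 and higher for 0 (all genes 4.12% and 4.56%), with Nr4a1 at 53.8 against 198 CPM (-2.07 ± 0.17) and Egr3 at 10.2 against 53.1 (-2.53 ± 0.16).

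Of 26 interferon-stimulated genes, 5 were higher and 2 lower than in pro-B cells (median 0.18), 7 and 2 against cycling cells (0.75, against -0.08 over all genes), and 2 and 2 against Ms4a1-positive cells (-0.16). The shares over all genes were 6.15% and 9.28%, 12.3% and 19.8%, and 4.56% and 4.12%, and only the higher counts against pro-B and cycling cells lay well above them. Ifih1, a sensor of double-stranded RNA, stood at 69.5 CPM in members (41.3 to 77.7) against 24.99 in pro-B and 26.95 in cycling cells, and was higher by 1.53 ± 0.09 and 1.34 ± 0.07. The antiviral gene Mx1 stood at 4.89 CPM, with log2 differences of 1.54 ± 0.18 from cycling and -2.45 ± 0.18 from Ms4a1-positive cells. Glucocorticoid-responsive genes were 0 and 0 of 21, 3 and 4, and 0 and 1 in the same order. Neutrophil markers, which measure free RNA, were 0 higher and 1 lower of 10 against pro-B cells and 1 and 0 against Ms4a1-positive cells, and erythroid markers 0 and 0 of 10 in both. The summed neutrophil markers ran from 7934 to 23596 CPM in members, and from 6738 to 34356 in pro-B and 6034 to 33424 in Ms4a1-positive cells. Monocyte and macrophage markers were 0 higher and 2 lower of 10 against pro-B cells (Fcgr3a and Cd68, median -0.91), and their sum was lower in members in every library, with means of 1817 and 2909 CPM. T and NK markers were 0 and 2 of 6 (Cd4 and Cd3g, median -0.84), at 58.3 and 125 CPM. Against Ms4a1-positive cells these lists were 0 and 1 (Ctss), and 0 and 0. The part of these markers in the pro-B comparison was not tested.

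**Figure D3:**
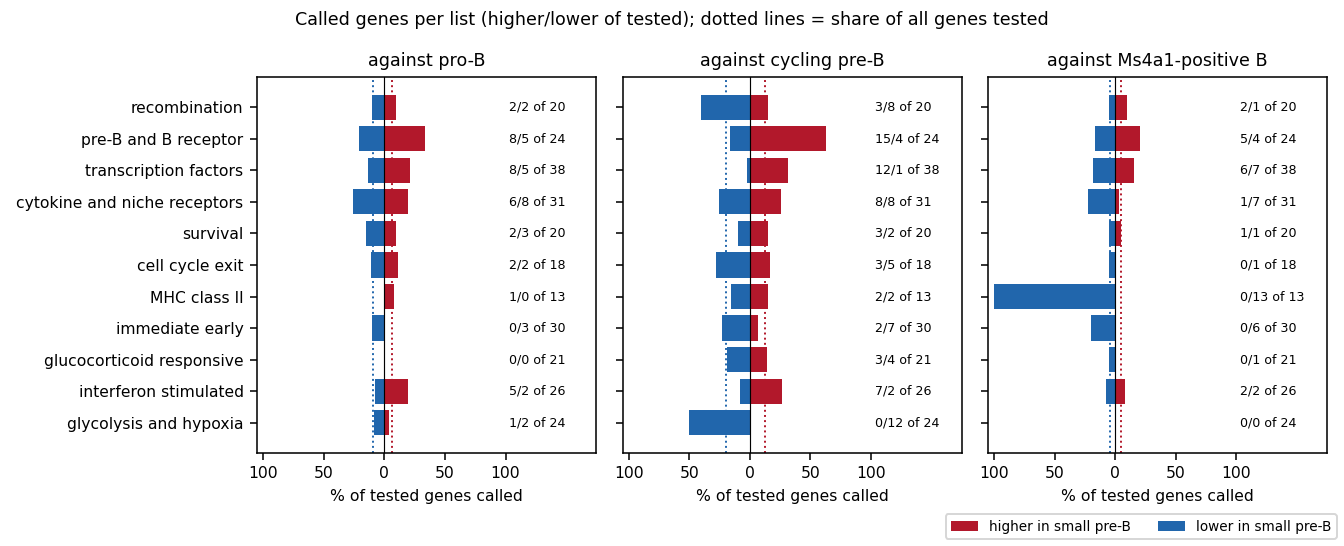
Share of the tested genes of each list called higher (right) or lower (left) in small pre-B cells than in pro-B, cycling pre-B and Ms4a1-positive B cells, in percent of the tested genes, with the genes called higher and lower, of those tested, beside each pair of bars; dotted lines mark the share over all genes tested. MHC class II was lower in 13 of 13 genes against Ms4a1-positive cells, and glycolysis and hypoxia in 12 of 24 against cycling cells.

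By size of change, the genes furthest above other populations were of varied function. Trpc4, a cation channel, led against both cycling (5.23 ± 0.19) and Ms4a1-positive cells (4.65 ± 0.23), at 40.4 CPM in members (24.0 to 111), 7.79 in pro-B, 1.12 in cycling and 1.38 in Ms4a1-positive cells. The lncRNA LOC120099990 stood at 213 CPM (94.5 to 243) against 17.8, 5.89 and 16.5, and was called in all 3 comparisons. Arpp21, a phosphoprotein regulated by cAMP, was 4.16 ± 0.19 above Ms4a1-positive cells (432 against 22.3 CPM), and pro-B cells held more of it than members (877 CPM, difference -1.06 ± 0.16). Stac, an adaptor of calcium channels, was 3.21 ± 0.24 above pro-B cells, and the calcium channel subunit Cacnb2 and the protease Adamts7 were 3.70 ± 0.11 and 4.05 ± 0.32 above Ms4a1-positive cells. The largest falls from pro-B cells were in LOC102550135, LOC103693221, LOC103691481, Klhl1 (-6.97 ± 0.49) and Ccdc141 (-6.56 ± 0.53). Those from cycling cells were the division genes H2ac10, Pbk, Esco2, Rrm2 and Sgo2, as the selection required. Those from Ms4a1-positive cells were Igha, Chst1, Ciita, RT1-Bb and RT1-Da. Igha, the IgA constant region of plasma cells, ran from 11.9 to 1520 CPM over the Ms4a1-positive libraries and was lower in members in 7 of 8.

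The share of cells that were small pre-B ran from 12.6% to 16.4% across the libraries, and the interval of TO_4d_24h lay below all others. It was 15.95% in TO_2d_0h (95% Clopper-Pearson interval 15.4 to 16.6), 14.4% in TO_2d_4h (13.9 to 15.0), 14.5% in TO_4d_4h (13.9 to 15.2) and 12.6% in TO_4d_24h (12.03 to 13.1). The TOE libraries held 15.7% at 2d_4h (15.1 to 16.2), 14.1% at 2d_24h (13.5 to 14.6), 16.1% at 4d_4h (15.5 to 16.7) and 16.4% at 4d_24h (15.8 to 17.1). The TOE over TO ratio was 1.09 at 2d_4h (1.03 to 1.15), 1.11 at 4d_4h (1.04 to 1.18) and 1.31 at 4d_24h (1.23 to 1.39). The first turned to 0.882 (0.830 to 0.936) when cells with at least 2 Cd79a UMIs were the denominator. With 2 or more Rag1 UMIs required, the intervals of the first and second ratio took in 1, at 1.04 (0.973 to 1.12) and 1.06 (0.979 to 1.14), as did that of the first on thinned cells, at 1.05 (0.982 to 1.12). The last used the library that stood apart, and was 1.16 (1.11 to 1.21) without the Rag1 requirement.

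Within the small pre-B cells, TOE over TO was read as the ratio of CPM, with 0.5 UMI added, for genes with at least 50 UMIs over the pair. At 2d_4h 6.92% of 11863 genes were at least 2-fold higher and 3.21% lower in TOE, at 4d_4h 2.73% of 12105 and 0.884%, and at 4d_24h 16.3% of 11387 and 8.45%. Of the genes past 2-fold, 68.3%, 75.6% and 65.9% were higher. With median-of-ratios scaling in place of total UMIs, these were 54.8%, 75% and 52.6%. That scaling centres the ratios of the measured genes on their median, which by itself evens the split. The source of the lean to higher values was not tested. The members' median mitochondrial share was lower in TOE in each pair, at 2.80% and 2.13%, 2.73% and 1.98%, and 4.88% and 3.26%. Its part in the TOE and TO values was not tested.

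Recombination genes differed between the pairs. Rag2 stood at 34.8 CPM in TO and 110 in TOE at 2d_4h, at 66.5 and 44.7 at 4d_4h, and at 32.2 and 143 at 4d_24h. The ratio was 3.16 (2.79 to 3.59) in the first pair, 0.672 (0.594 to 0.761) in the second and 4.44 (3.86 to 5.11) in the last, and so changed direction at 4d_4h. Atm, the kinase that senses the breaks, followed with 71.9 and 178, 141 and 93.5, and 58.0 and 260 CPM. Lig4 stood at 521 and 800, 600 and 417, and 397 and 1133 CPM. The list medians were 0.58, -0.14 and 0.83 on the log2 scale against 0.14, 0.00 and 0.13 over all genes. Of 19 genes 2, 0 and 6 were at least 2-fold higher, and 0 were lower in each pair. Over all genes 6.92%, 2.73% and 16.3% were higher, so the first 2 counts were near those shares. In Ms4a1-positive cells the medians were 0.52, -0.05 and 0.66, and in S100a8-high cells 0.06, 0.12 and 0.50, so the day 4, 24 h value was also seen outside the B lineage. In the members, kappa V segments were lower in TOE at 2d_4h and 4d_24h. Their sum in members was 1241 and 667 CPM at 2d_4h, 805 and 894 at 4d_4h, and 1080 and 723 at 4d_24h. Of the 32, 27 and 35 segments with enough UMIs, 15, 5 and 18 were at least 2-fold lower in TOE. Those at least 2-fold higher were 2, 3 and 2. Over all genes 3.21%, 0.884% and 8.45% were lower and 6.92%, 2.73% and 16.3% higher. The segment medians were -0.85, 0.01 and -1.18, and the last was -0.70 on thinned cells. In cycling cells the medians were -0.85, -0.25 and -0.68. In Ms4a1-positive cells they were -0.39, 0.02 and 0.72, so the last pair went the other way there.

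Immediate early genes went lower in the same 2 pairs. At 2d_4h 0 of 30 lay above 0 and 7 were at least 2-fold lower in TOE (median -0.78), beside 3.21% of all genes. At 4d_24h 16 of 29 were at least 2-fold lower (median -1.36), beside 8.45% of all genes. At 4d_4h 0 were (median 0.07), beside 0.884%. In the order 2d_4h, 4d_4h and 4d_24h, the S100a8-high cells gave -0.38, -0.25 and -1.24. Pro-B cells gave -0.70, -0.31 and -1.01, and cycling cells -0.65, -0.07 and -0.75. Ms4a1-positive cells gave -0.89, -0.02 and -0.99. The lower values at 2d_4h and 4d_24h were thus not particular to the members. The lymphocyte activation marker Cd69 stood at 247 CPM in TO_4d_24h and 21.8 in TOE_4d_24h. Its other 6 libraries lay between 125 and 249.

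Other genes of the members marked out TOE_4d_24h. Cxcr4 (131 CPM), Sox4 (287), Btg2 (934), Tnfrsf13c (13.6) and Cd74 (94.8) were each lower there than in any of the other 7 libraries. Sox4 ran from 814 to 1162 CPM elsewhere and Tnfrsf13c from 61.1 to 157. Pax5 was higher there (1452 CPM) than in the others (522 to 1028). Against TO_4d_24h, Pax5 was 2.78-fold (2.68 to 2.88) and Bach2 2.59-fold (2.55 to 2.63) higher. Log2 differences of S100a8-high cells in that pair were 1.65 for Pax5, 0.98 for Bach2, -0.68 for Cxcr4 and -1.77 for Cd69. Erythroid markers had a median of -5.58 in members and -5.59 in S100a8-high cells. Their part, and that of the library as such, in the members' values was not tested, and in this pair library and treatment cannot be told apart.

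MHC class II medians were 0.35, 0.67 and -1.28 in the 3 pairs, and those of S100a8-high cells -0.69, 0.70 and -0.53. Pro-B cells gave 0.23, 1.46 and -3.02, cycling cells 0.26, 0.44 and -0.51, and Ms4a1-positive cells 0.11, 0.10 and -1.27. The 2d_4h median of members was -0.0028 on thinned cells and 0.58 without doublets, so its direction did not hold. At 4d_4h 5 of 11 class II genes were at least 2-fold higher in TOE, beside 2.73% of all genes. Monocyte and macrophage markers, which share the antigen-presenting cell, had medians of 0.42, 0.94 and -1.34 in the members, and their summed level was 1637 CPM in TO_4d_4h and 3749 in TOE_4d_4h. Without doublets the 4d_4h median of these markers was 0.45 and that of class II 0.71, and without the top cell of each gene 1.24 and 0.67. Their part in the class II values was not tested.

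**Figure D4:**
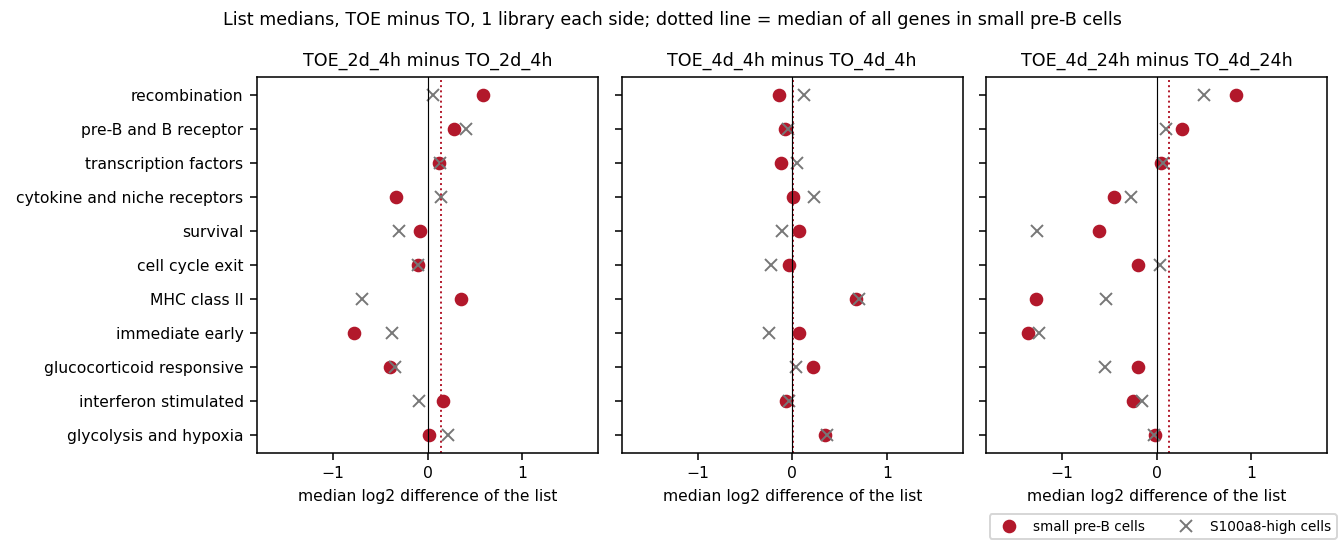
Median log2 ratio of TOE over TO for each gene list in the 3 matched pairs, in small pre-B cells (points) and in S100a8-high cells (crosses); the dotted line marks the median of all genes in small pre-B cells. In small pre-B cells recombination genes had medians of 0.58, -0.14 and 0.83 and immediate early genes of -0.78, 0.07 and -1.36.

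The most extreme single genes of a pair often came from 1 cell. Of 30 genes named by size, 13 had over 50% of the higher library's UMIs in a single member, among them the mast cell genes Tpsb2 and Cpa3, the stromal genes Mmp13, Cxcl12 and Mgp, and the heavy constant region LOC103692723, with 2621 of 2725 UMIs in 1 cell of TOE_2d_4h. In 12 the top member held under 20%. Pcp4l1, a small calmodulin-related protein, was one of these. It stood at 254 CPM in TO_2d_4h, with a UMI in 1170 members, and at 0.742 CPM in TOE_2d_4h, with a UMI in 6. The other 6 libraries ranged from 63.8 to 246 CPM, and the ratio was 0.447 (0.407 to 0.490) at 4d_4h and 2.54 (2.33 to 2.78) at 4d_24h. The near loss in TOE_2d_4h was thus not repeated in the other TOE libraries. In the other populations the lowest library was likewise low, at 3.08 CPM in pro-B and 0.472 in cycling cells.

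Of 10942 genes measured in all 3 pairs, 3 were at least 2-fold higher in TOE each time and 0 were lower each time, with no test behind either count. Hp, the plasma protein haptoglobin, stood at 24.97 and 125, 50.2 and 209, and 51.6 and 211 CPM, ratios of 5.00 (4.34 to 5.77), 4.15 (3.75 to 4.61) and 4.08 (3.66 to 4.57). Its level in S100a8-high cells was 359 and 1515 CPM at 2d_4h, so it was far higher there and moved the same way. The TO_2d_0h and TOE_2d_24h members, outside the pairs, held 9.70 and 20.6 CPM. LOC103693700 stood at 12.4 and 28.8, 23.2 and 47.4, and 22.8 and 63.2 CPM, and was at most 3.63 CPM in the S100a8-high cells of these libraries. Trpv2, a cation channel, stood at 2.80 and 7.14, 5.12 and 10.4, and 2.36 and 6.95 CPM, below its 15.6 to 38.5 CPM in S100a8-high cells. Over all 4 TOE against all 4 TO libraries, 1.01% of 11948 genes with at least 200 UMIs were higher in every TOE library and 0.326% lower, and among the listed genes Bad and Eno1 were higher and Cd40 lower.

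Over the 6 libraries of the 3 pairs, with the pair as a block, edgeR called 0 of 14030 genes (0%) between TOE and TO, a test added once the data were known with 2 residual degrees of freedom. At an unadjusted p under 0.05 there were 622 genes (4.43%). Hp had the smallest adjusted p, 0.0826 by edgeR, at a log2 difference of 2.01 ± 0.23 and higher in TOE in 3 of 3 pairs. Without the 4d_4h pair 256 genes were called, without the 2d_4h pair only Mgp and without the 4d_24h pair only Hp, each with 1 residual degree of freedom.

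The hour of collection separated the members' libraries more often than the treatment did, as a count with no test. Of the same 11948 genes, 13.8% were higher in all 4 h libraries than in all 0 h and 24 h libraries, and 11.1% were lower. Cecr2 stood at 3034 to 3478 CPM in the 4 libraries of 4 h and at 1729 to 1924 in the other 4. Akap12 stood at 1282 to 1557 against 642 to 1149 CPM. The levels of both markers thus split by the hour label, with TO and TOE libraries on each side. Lyn (2153 to 2533 against 1308 to 1556 CPM), Plcg2, Foxo1, Tcf4 and Btg1 were also higher at 4 h. The lambda constant region LOC120093161 was lower, at 1031 to 1429 against 2055 to 2410 CPM, as were Cd79a, Iglc1, Vpreb1a and Hmgb1. Both arms and both days lay on each side. The members' median mitochondrial share split the same way, at 1.98% to 2.80% in the 4 h libraries and 3.26% to 4.88% in the others. Its part in these values, and the difference between the hours, was not tested.

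**Figure D5:**
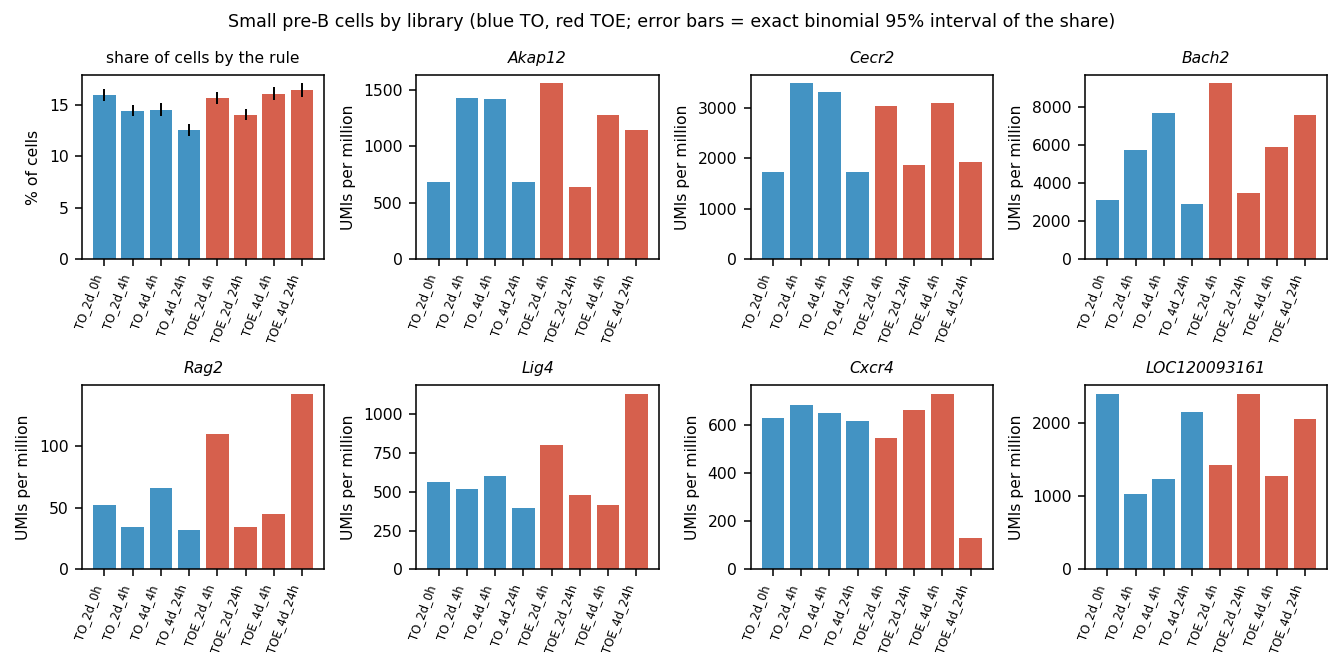
Share of cells taken by the rule, in percent with exact 95% binomial intervals, and level of 7 genes in the small pre-B cells, in CPM; each bar is 1 of the 8 libraries, with TO in blue and TOE in red. Cecr2 was at 3034 to 3478 CPM in the 4 libraries of 4 h and at 1729 to 1924 in the others, and Cxcr4 fell to 131 CPM in TOE_4d_24h.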

How the data were processed

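The authors deposited, per library, a 10x matrix of raw UMI counts for 41801 genes, made from 3' gene expression libraries. The submitters' processing notes name Cell Ranger 9.0.0, Seurat, R 4.0.3 and the builds GRCh38 and mRatBN7.2, with no role given. A ninth sample, TO_2d_24h, was not analysed here.

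Cells were filtered, assigned to populations and summed per library with scanpy 1.11.5, pandas 2.3.3, numpy 2.4.6 and scipy 1.17.1 in python 3.11.15. Doublets were scored with Scrublet at an expected rate of 8% and kept, with a score over 0.25 as the mark. The 8 libraries held 116711 barcodes, each of at least 500 UMIs, and 95954800 to 144146202 UMIs in all. Sums were tested with edgeR 4.0.16 in R 4.3.3 (TMM, filterByExpr, robust quasi-likelihood, population plus library), and with DESeq2 1.42.0 as an alternative. The 3 TOE and TO pairs were tested with edgeR on the members' sums, with the pair as a block. On sums simulated with a single fixed spread and no shift of single libraries, it recovered 43.4% of 2-fold and 96.9% of 4-fold changes. The spread of the real pairs was not simulated, so these shares do not give the power of the test on them. The libraries were the replicates, and p-values measure the spread between them. On population sums simulated with a single fixed spread, edgeR recovered 73.2% of 2-fold changes against pro-B, 91.8% against cycling and 83.5% against Ms4a1-positive cells. It recovered 98.98% or more of 4-fold changes and called 0.0702%, 0.0561% and 0.0702% of unchanged genes.

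Members, comparison populations and gene lists were chosen with earlier results of these data known. Named genes were the 6 markers, the list members, the 5 largest called rises and falls of each comparison with at least 20 CPM in 1 population, the 5 largest of each TOE and TO pair with at least 50 UMIs, and genes past 2-fold in all 3 pairs. Immunoglobulin segments were located in RefSeq tables of GRCr8, where 36414 listed symbols matched. V segments were grouped with a named gene of the locus by their start positions in that build. Of the gene lists, 3 symbols were matched through synonyms and 4 were not listed. Figures were drawn with matplotlib 3.10.9. The alternatives were another normalization, no low-count filter, thinning to 2000 UMIs, doublets left out, a stricter cell filter, other thresholds and leaving out each library.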

Additional observations from a re-analysis of the deposited data

Results flagged for a closer look

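Within small pre-B cells, 3 gene lists had medians of opposite sign, each at least 0.5 from 0 on the log2 scale, in different pairs of TOE and TO libraries. Other lists changed sign with smaller medians on one side. In each case the difference between the pairs was not tested, since each pair is 2 libraries. The MHC class II list had a median log2 TOE over TO of 0.67 at 4d_4h and -1.28 at 4d_24h. It changed sign between these pairs in other cells too, at 1.46 and -3.02 in pro-B and 0.70 and -0.53 in S100a8-high cells. Monocyte and macrophage markers had medians of 0.94 and -1.34 in the same pairs, and the first was 0.45 without doublets and 1.24 without the top cell of each gene. These markers gave 0.56 and -0.84 in cycling, 1.07 and -1.16 in Ms4a1-positive and 0.89 and -0.53 in S100a8-high cells. Neither the class II nor this change of sign was thus particular to the members. Plasma cell markers had medians of 0.56 at 2d_4h and -1.17 at 4d_24h, and the first was 0.26 without the top cell of each gene and 0.37 on thinned cells. In these 2 pairs they gave 0.22 and -1.22 in cycling and 0.31 and 0.09 in Ms4a1-positive cells. All 3 rest on TOE_4d_24h, the library that stood apart.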

How the results depend on the processing

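Counts of called genes stayed within 1.5 times their value under DESeq2, thinning, removal of doublets, a stricter cell filter, a fit of only the populations compared, each library left out and, chosen after the data were seen, a Cd79a requirement. Without a low-count filter 7000 genes were called against cycling cells in place of 4647. The TOE over TO share at 2d_4h turned from 1.09 to 0.882 with Cd79a-positive cells as denominator, and at 4d_24h went from 1.31 to 1.16 without the Rag1 requirement. Genes past 2-fold went from 1202, 438 and 2821 to 540, 139 and 1627 in the 3 pairs when 200 UMIs were required, and at 4d_4h to 139 on thinned cells and to 224 among genes higher in members than in S100a8-high cells, also added once the data were known. The MHC class II median at 2d_4h turned from 0.35 to -0.0028 on thinned cells. The causes were not tested. Of 1859 values of single genes under 15 settings, 20 dropped under the threshold, 13 passed it and 0 turned direction. The paired fit of TOE against TO over the 3 pairs (replicate block) called 0 genes, as did the fit without the block, and left-out pairs gave 1 to 256.

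With 1 library per condition, differences between TOE and TO are those of libraries. Genes under about 1 CPM in the members, such as Vpreb1b, rest on few UMIs.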

Other observations

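Between 71.0% and 86.9% of small pre-B cells per library held a UMI of the lambda constant region LOC120093161. Among members with a kappa segment UMI the share was 73.0% to 88.5%, and among members without one 51.0% to 78.2%. It was thus more frequent among the kappa-positive members in each of the 8 libraries. Of S100a8-high cells thinned to 2000 UMIs, 2.78% to 15.2% held a UMI of LOC120093161, whereas the shares above are of cells that were not thinned. The depth of these cells was not compared.

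The heavy constant region LOC103692723 was held at 1 UMI each by all 77 positive members of TO_2d_0h, whereas in TOE_2d_4h a single member held 2621.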
